A study of Mus musculus with 24 samples.

Results

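The myeloid and inflammatory miRNAs examined here were mmu-miR-155-5p, mmu-miR-146a-5p, mmu-miR-146b-5p, mmu-miR-21a-5p, mmu-miR-223-3p, mmu-miR-142a-3p, and mmu-miR-142a-5p, written below without the species prefix. They were taken by name, as 7 of the 1531 mouse entries in the count tables, with no threshold on their measured values. MiRNA-Seq had been performed on the right cerebellum, right striatum/thalamus, and right cortex of 8 CD1 pups at postnatal day 9, which gave 24 libraries. In the 4 pups with hypoxic-ischemic brain injury (HIBI; pups 1, 4, 5, and 7), the right common carotid artery was cauterized under isoflurane with bupivacaine at the incision, and after 2 h with the dam the pups spent 30 min at 8% oxygen. The 4 sham pups (2, 3, 6, and 8) had the same anesthesia, analgesia, and neck dissection, kept the artery open, and spent the same time in normoxia away from the dam. Brains of both groups were taken 30 min after the hypoxia or normoxia. Each library came from 1 region of 1 pup, pups of both sexes were used, and no hypoxia-only group was included.

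A mature miRNA guides an Argonaute protein to messenger RNAs that pair with its seed, bases 2 to 8, and lowers their output. MiR-223 and miR-142 are made largely by blood cells, with miR-223 typical of granulocytes and monocytes and miR-142 of nearly all hematopoietic cells, microglia included. MiR-155 is made from a transcript that Toll-like receptor and cytokine signals switch on, the miR-146 pair acts back on the same signals through IRAK1 and TRAF6, and miR-21 is a widely expressed miRNA that rises in many injured tissues.

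The mature sequences are given because the seed defines what each miRNA can pair with, and because 2 of the members are close enough in sequence for their reads to be confused. All 7 were matched in RefSeq on GRCm38.p6, and capitals mark the seed. The miR-146 pair, listed first, shares 1 seed, and the other members share none with another of the 7. Outside the 7, miR-21c of the same RefSeq set has the seed of miR-21a-5p.
miR-146a-5p: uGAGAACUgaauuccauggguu
miR-146b-5p: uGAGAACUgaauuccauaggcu
miR-155-5p: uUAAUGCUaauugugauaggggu
miR-21a-5p: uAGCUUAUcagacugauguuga
miR-223-3p: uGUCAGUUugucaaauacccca
miR-142a-3p: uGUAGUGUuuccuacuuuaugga
miR-142a-5p: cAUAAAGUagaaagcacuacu
The miR-146 pair differed at 2 of 22 positions, G18A and U21C, with positions counted from the 5′ end and the base of miR-146a-5p given first. Each of the other members was at least 4 edits from any other mouse mature sequence of that RefSeq set.

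The hairpins of these miRNAs lie in host genes of several kinds. On GRCm38, Mir155 is at chr16:84714140-84714204 within an exon of the noncoding gene Mir155hg, and Mir223 is at chrX:96242817-96242926 within an exon of F630028O10Rik. Mir21a, at chr11:86584067-86584158, falls within an exon of Vmp1, a gene of autophagy. Mir146b is at chr19:46342762-46342870 in an intron of Mfsd13a, and Mir146, the source of miR-146a-5p, is at chr11:43374397-43374461 with no other annotated gene over it. Mir142, at chr11:87756864-87756927, lies inside Mir142hg but in none of its annotated exons, and the annotated Mir142b covers it on the opposite strand. The Mir142 hairpin holds both miR-142a members, shown here in capitals with the 5p arm first.
Mir142 hairpin: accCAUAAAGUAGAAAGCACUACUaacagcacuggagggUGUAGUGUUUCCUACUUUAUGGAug

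Libraries held from 1254185 to 3406624 counts of mouse miRNAs, and 3 counts, taken as the floor of detection, correspond to 0.881 to 2.39 CPM (counts scaled to a common library total) before further scaling. CPM below are scaled by the trimmed mean of M values (TMM), and all intervals and floors of this kind cover counting error only. No pair of libraries of 1 group was within sampling noise of each other. The tissue was neural by its markers, with 4 neuronal miRNAs summing to 79081 to 224027 CPM in each library, 2 oligodendrocyte miRNAs to 788 to 8318 CPM, 2 of smooth muscle and pericytes to 1757 to 5591 CPM, and 4 of choroid plexus and ciliated epithelium to 1497 to 9657 CPM. In these 4 lists none was called between HIBI and sham in any region. Between sham regions, 2 of 2 oligodendrocyte miRNAs and 2 of 3 tested of choroid plexus and ciliated epithelium were called lower in each forebrain region than in the cerebellum. Such calls were common, with 28.8% of all 437 entries tested lower in sham cortex and 30.9% lower in sham striatum/thalamus.

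The other 5 members were counted in every library, while the miR-142a members had counts near 0. Over the 24 libraries, miR-146a-5p had 31258 counts, miR-21a-5p had 20159, miR-146b-5p had 9191, miR-155-5p had 1576, and miR-223-3p had 1544. MiR-142a-3p had 18 counts in all, spread over 6 libraries with at most 7 in 1 of them, the cerebellum of HIBI pup 5. MiR-142a-5p had 17 counts, spread over 8 libraries with at most 4 in 1 of them, the same library. Summed over the 24 libraries, these were 0.333 and 0.315 CPM, and in each of the 6 groups of 4 libraries each of them was at 0 in at least 1 pup. Each reached 3 counts in 3 libraries, and no fold change is given for them. A count of 0 allows a level of up to the floor.

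The low miR-142a counts stood beside readily counted miRNAs of other blood cells. MiR-451a, which erythrocytes make in large amounts, had 10616 counts, and miR-150-5p, which is typical of lymphocytes, had 47529. A difference between miRNAs in the efficiency of adapter ligation or of read assignment was not measured here, so that these totals order counts and not molecules. The passenger arms of the members were scarce. MiR-155-3p had 1 count, miR-223-5p had 3, and miR-21a-3p had 12, while miR-146b-3p had 453, with 12 to 39 in each library. No entry by the name of miR-146a-3p, miR-142b, miR-21b, or miR-21c was among the 1531 mouse entries, so these have no counts here.

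In the sham pups, miR-155-5p was highest in the cerebellum, miR-21a-5p was lowest in the striatum/thalamus, and miR-146b-5p was higher in the cortex than in the cerebellum. MiR-146a-5p and miR-223-3p passed the test between no pair of regions. These comparisons used 1 model of all 24 libraries, with a Benjamini-Hochberg adjusted p under 0.05 as the call. Regions differed widely in this assay. Of 437 entries tested, 58.6% were called between sham cortex and sham cerebellum, 62.5% between sham striatum/thalamus and sham cerebellum, and 33% between sham cortex and sham striatum/thalamus. The members called were 2, 2, and 1 of 7 in these 3 contrasts, with 5 of 7 above the 10 CPM minimum. Tissue was taken as a whole, and fewer cells of a type cannot be told apart from less of a miRNA per cell.

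MiR-155-5p, the miRNA of activated macrophages and lymphocytes, was at 84.2, 52.1, 53.0, and 86.3 CPM in the cerebellum of sham pups 2, 3, 6, and 8. In the striatum/thalamus of the same pups it was at 5.87, 23.4, 23.4, and 9.40 CPM. In the cortex it was at 13.5, 17.9, 6.95, and 8.37 CPM. Every cerebellar library was above every library of the other regions. The cortex was lower than the cerebellum by a log2 fold change of −2.56 (SE 0.463, adjusted p = 6.69e-05) and the striatum/thalamus by −2.14 (SE 0.457, adjusted p = 0.000344). Cortex and striatum/thalamus did not differ beyond their spread (log2 fold change −0.42, SE 0.458, adjusted p = 0.517).

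The HIBI pups, whose libraries shared the model and its estimate of spread, showed the same order. MiR-155-5p was at 42.4, 39.9, 53.1, and 75.5 CPM in the cerebellum of HIBI pups 1, 4, 5, and 7, at 4.97, 14.2, 20.9, and 21.1 CPM in their striatum/thalamus, and at 4.43, 11.3, 11.1, and 16.2 CPM in their cortex. Log2 fold changes against the cerebellum were −2.27 for the cortex and −1.76 for the striatum/thalamus (adjusted p = 0.000423 and 0.00209). Within pups, the cerebellum exceeded the cortex in 8 of 8 pups, by 2.91-fold in pup 3 to 10.3-fold in pup 8, and the striatum/thalamus in 8 of 8 pups, by 2.22-fold in pup 3 to 14.4-fold in pup 2. All 8 pups moved 1 way for 44.4% and 51.9% of all entries in these contrasts. The exact sign-flip test over the 8 pups, two-sided and chosen after the data were seen, gave p = 0.00781 for both, the smallest it can give.

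Markers of other tissues also differed between regions in the same libraries, not all in the order of miR-155-5p. The 3 skeletal muscle miRNAs summed to 447 to 602 CPM in sham cerebellum and to 28.4 to 63.6 CPM in sham cortex, with none at 0, and miR-206-3p alone was lower in the cortex by a log2 fold change of −5.68. The 4 erythrocyte miRNAs summed to 732 to 1338 CPM in sham cerebellum and to 464 to 672 CPM in sham cortex, where miR-144-3p was at 0 in pup 8. In sham striatum/thalamus the erythrocyte list summed to 701 to 864 CPM, which overlapped the cerebellum, and the muscle list to 52.8 to 141 CPM. Of 2 erythrocyte miRNAs tested, 1 was called lower in sham cortex than in sham cerebellum and 0 in sham striatum/thalamus. Over all entries, 28.8% and 30.9% were called lower in these contrasts. Over 8 pups, cortex against cerebellum was −0.79 for miR-486a-5p and −0.19 for miR-451a on the log2(CPM + 1) scale. The part of either tissue in the miR-155-5p level was not tested.

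MiR-21a-5p was lowest in the striatum/thalamus of all 8 pups. In sham pups 2, 3, 6, and 8 it was at 339, 370, 463, and 593 CPM in the cerebellum, at 141, 172, 218, and 138 CPM in the striatum/thalamus, and at 399, 277, 364, and 440 CPM in the cortex. The highest striatum/thalamus library was below the lowest library of either other region. The log2 fold change was −1.40 against the cerebellum (SE 0.302, adjusted p = 0.000375) and the cortex exceeded the striatum/thalamus by 1.14 (SE 0.300, adjusted p = 0.00556). Cortex and cerebellum overlapped (log2 fold change −0.25, SE 0.295, adjusted p = 0.487). Without pup 8 the cortex to striatum/thalamus difference was 0.89 and lost its call (adjusted p = 0.0808).

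In the HIBI pups the same dip was seen. MiR-21a-5p was at 287, 576, 906, and 754 CPM in the cerebellum of pups 1, 4, 5, and 7, at 109, 127, 232, and 157 CPM in the striatum/thalamus, and at 361, 253, 489, and 466 CPM in the cortex. The striatum/thalamus was lower than the cerebellum by 2.13-fold in pup 6 to 4.80-fold in pup 7 over all 8 pups, and the cortex was higher than the striatum/thalamus in 8 of 8 pups by 1.61-fold in pup 3 to 3.30-fold in pup 1. All 8 pups moved 1 way for 37.3% of entries in the latter contrast. The endothelial miRNA miR-126a-3p was also higher in sham cortex than in sham striatum/thalamus, by a log2 fold change of 0.77 (SE 0.289, adjusted p = 0.0428). Between sham striatum/thalamus and sham cerebellum its log2 fold change was −0.65 and was not called. In 8 of 8 pups miR-126a-3p was lower in the striatum/thalamus than in the cerebellum, by a mean of −1.03 on the log2(CPM + 1) scale. All 8 pups moved 1 way for 51.9% of entries in that contrast. The endothelial list of 2 miRNAs summed to 2112 to 4040 CPM in sham cerebellum, 1237 to 3126 CPM in sham striatum/thalamus, and 2744 to 3738 CPM in sham cortex, with neither at 0 in any library.

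Of the 4 neuronal miRNAs, 1 was called lower in sham striatum/thalamus than in sham cerebellum, beside 30.9% of all entries. Against sham striatum/thalamus, 3 of the 4 were called higher in sham cortex, beside 16.9% of all entries. MiR-9-5p was lower in sham striatum/thalamus than in sham cerebellum by a log2 fold change of −1.02 (SE 0.319, adjusted p = 0.00801) and higher in sham cortex than in sham striatum/thalamus by 0.83 (SE 0.318, adjusted p = 0.0448), each in 8 of 8 pups over both injury groups. MiR-128-3p was higher in the cortex than in the striatum/thalamus by 1.56 (SE 0.234, adjusted p = 5.36e-05), also in 8 of 8 pups, and its difference between striatum/thalamus and cerebellum was −0.14 (adjusted p = 0.615). The other 2 did not dip against the cerebellum. On the log2(CPM + 1) scale over 8 pups, miR-124-3p was at 0.19 (higher in 6) and miR-138-5p at −0.008 (higher in 4). The neuronal list of 4 miRNAs summed to 120207 to 191025 CPM in sham cerebellum, 88640 to 152556 CPM in sham striatum/thalamus, and 195941 to 224027 CPM in sham cortex, with none at 0 in any library. The part of endothelial or neuronal cells in the miR-21a-5p level was not tested.

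**Figure D1:**
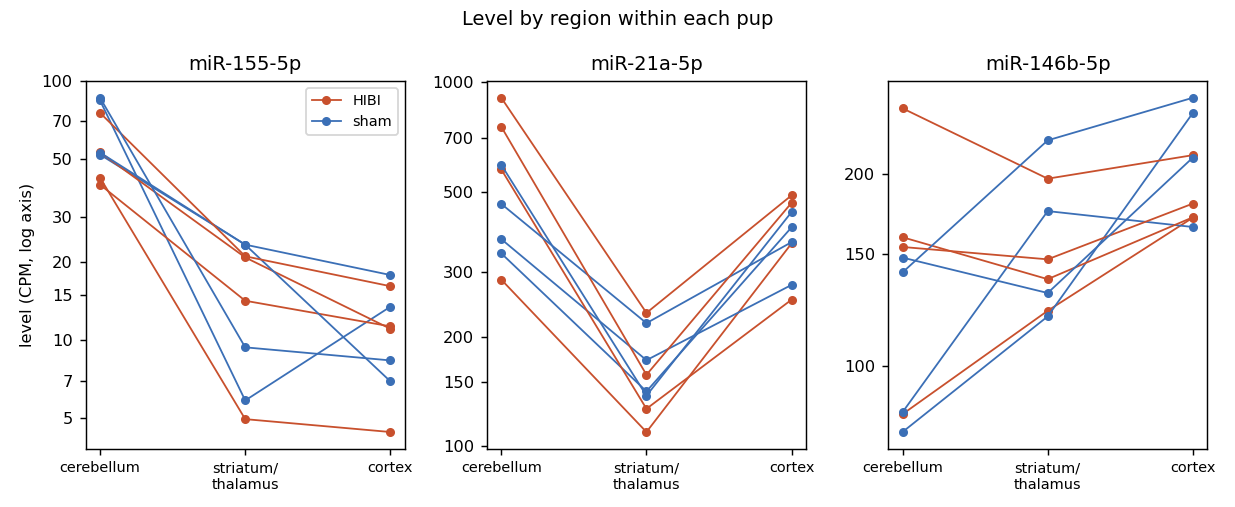
Level of miR-155-5p, miR-21a-5p, and miR-146b-5p (CPM, log axis) in the cerebellum, striatum/thalamus, and cortex, with 1 line for each of the 8 pups, blue for sham and orange for HIBI. MiR-155-5p falls from the cerebellum in 8 of 8 pups, miR-21a-5p dips in the striatum/thalamus in 8 of 8 pups, and miR-146b-5p is higher in the cortex than in the cerebellum in 7 of 8 pups.

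MiR-146b-5p rose toward the cortex in sham pups. It was at 79.0, 84.8, 140, and 148 CPM in the cerebellum of pups 2, 3, 6, and 8, at 120, 175, 225, and 130 CPM in the striatum/thalamus, and at 249, 165, 263, and 212 CPM in the cortex. All 4 cortex libraries were above all 4 cerebellar libraries, and the striatum/thalamus overlapped both. The cortex exceeded the cerebellum by a log2 fold change of 0.97 (SE 0.284, adjusted p = 0.00610). The striatum/thalamus differed from the cerebellum by 0.52 (SE 0.283, adjusted p = 0.109), which passed with the pup as a replicate block (0.54, adjusted p = 0.0487). The cortex difference rested in part on pup 2, without which it was 0.77 (adjusted p = 0.0605), and it was 0.18 in the HIBI pups (adjusted p = 0.624), where cerebellar levels were 84.2, 159, 253, and 154 CPM and cortical levels 171, 171, 214, and 180 CPM.

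MiR-146a-5p was the most counted member. Its means in the sham pups were 463 ± 132 CPM in the cerebellum, 608 ± 238 CPM in the striatum/thalamus, and 624 ± 62.5 CPM in the cortex (SD, n = 4). None of the 3 contrasts was called, with adjusted p-values of 0.159 for the cortex against the cerebellum, 0.185 for the striatum/thalamus against the cerebellum, and 0.916 for the cortex against the striatum/thalamus. After a correction for the GC content of each sequence with the pup as a replicate block, an alternative chosen after the data were seen, the first 2 were called at log2 fold changes of 0.57 and 0.79 (adjusted p = 0.00348 and 0.000162). MiR-146b-5p was then also called between the striatum/thalamus and the cerebellum, at 0.96 (adjusted p = 0.000178).

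MiR-223-3p, the granulocyte and monocyte miRNA, was counted at low levels in all regions. In sham pups 2, 3, 6, and 8 it was at 37.8, 14.5, 27.2, and 40.0 CPM in the cerebellum, at 10.6, 25.1, 27.2, and 12.9 CPM in the striatum/thalamus, and at 27.9, 46.6, 22.7, and 21.8 CPM in the cortex. The regions overlapped throughout, and no contrast was called (adjusted p = 0.124 to 0.987). The lowest of these values, in the striatum/thalamus of pup 2, rested on 18 counts.

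**Figure D2:**
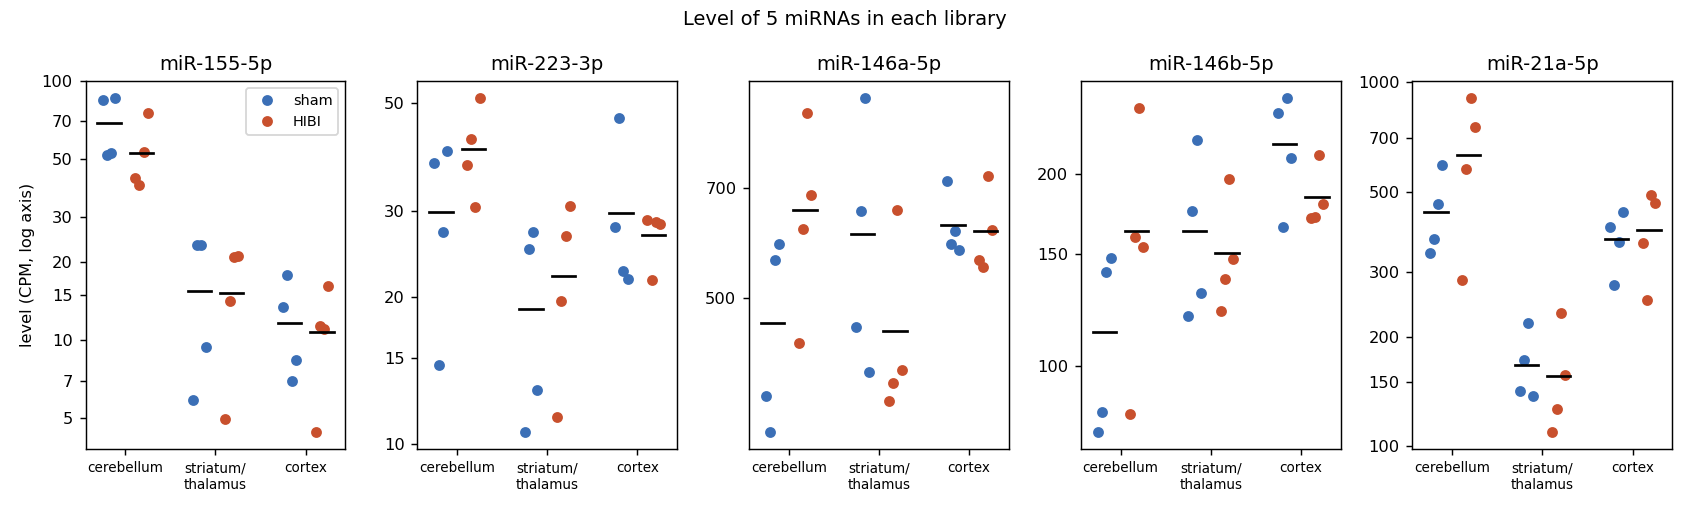
Level (CPM, log axis) of the 5 miRNAs counted in every library, by region, with 1 point for each library, blue for sham and orange for HIBI, and black bars for the mean of 4 pups. HIBI and sham points overlap in each panel and region, and the cerebellar points of miR-155-5p sit above those of the other regions.

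The comparison of HIBI with sham asks which miRNAs had changed by 30 min after injury. None of the 7 members was called in any region by the criteria used here, an unadjusted p under 0.05 together with a change of more than 1.5-fold. Those criteria called 7.8% of 436 entries in the cerebellum, 2.74% of 438 in the striatum/thalamus, and 3.4% of 412 in the cortex. An unadjusted p under 0.05 was reached by 0 of the 7 in each region by edgeR's quasi-likelihood test, and DESeq2 and edgeR's exact test called 0 of the 7 in each region as well. The HIBI and sham libraries of every member overlapped in every region, and exact permutation tests of the 5 miRNAs above the minimum, two-sided over 70 arrangements, gave p-values from 0.143 to 1.0 where the smallest possible is 0.0286. Groups did not overlap for 3.67%, 1.83%, and 3.4% of all entries in the 3 regions.

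In the cerebellum, 4 of the 5 members above the minimum had positive log2 fold changes of similar size and miR-155-5p a negative one, none past the test. MiR-146a-5p, which damps Toll-like receptor signalling, was at 435, 617, 882, and 685 CPM in HIBI pups 1, 4, 5, and 7 and at 369, 331, 561, and 590 CPM in sham pups 2, 3, 6, and 8. HIBI pups 4, 5, and 7 were above every sham pup and HIBI pup 1 was not. The log2 fold change was 0.51 (SE 0.261, adjusted p = 0.437, edgeR unadjusted p = 0.0726). The values for miR-146b-5p, miR-21a-5p, and miR-223-3p were 0.53 (SE 0.333), 0.52 (SE 0.313), and 0.47 (SE 0.331), with adjusted p-values from 0.454 to 0.511. MiR-155-5p had −0.35 (SE 0.294, adjusted p = 0.561). The median over the 5 was 0.51, beside 0.10 over all entries tested.

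Calls of members appeared in the cerebellum when pup 1 or pup 6 was left out or the scaling was changed. Without pup 1, miR-146a-5p, miR-146b-5p, and miR-21a-5p were called in the cerebellum at 0.66, 0.74, and 0.76 (unadjusted p = 0.0249, 0.0294, and 0.0111; adjusted p = 0.282, 0.282, and 0.255). Leaving out sham pup 6 gave 1 call, miR-146a-5p at 0.61 (unadjusted p = 0.0445), and scaling by library size alone gave miR-146a-5p at 0.66 (unadjusted p = 0.0294). Calls over all entries, 34 of 436 with all pups and TMM, also rose in each of these refits, as counted below under processing.

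The GC content of the miRNAs moved with the same libraries. Members had 33.3% to 40.9% GC, against a median of 50% for entries above 10 CPM with a sequence. Relative to the other cerebellar libraries, the levels of all such entries changed by −0.29 and −0.26 log2 units for each 10% of GC in HIBI pups 5 and 7, by 0.28 in HIBI pup 1, and by −0.07 to 0.18 in the sham pups. With that trend removed from each library, the 4 positive log2 fold changes in the cerebellum became 0.31 for miR-146a-5p, 0.31 for miR-146b-5p, 0.17 for miR-21a-5p, and 0.28 for miR-223-3p. MiR-155-5p became −0.74 and met the criteria (SE 0.307, unadjusted p = 0.0317, adjusted p = 0.337).

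Some blood and muscle markers differed in the same comparison, while others did not. The 4 erythrocyte miRNAs summed to 594 to 800 CPM in HIBI cerebellum and 732 to 1338 CPM in sham cerebellum, and miR-144-3p was at 0 in HIBI pup 7. Within that list, 1 of 2 tested was called, miR-486a-5p at −0.86 (SE 0.273, unadjusted p = 0.00818, adjusted p = 0.437). The other, miR-451a, was at −0.15 on the log2(CPM + 1) scale (exact permutation p = 0.771), and its groups overlapped. MiR-144-5p, which was under the minimum, lay the other way, with means of 8.30 CPM in HIBI and 6.46 CPM in sham. Among the 3 skeletal muscle miRNAs 1 was called, miR-1a-3p at 1.04 (unadjusted p = 0.0499, adjusted p = 0.437). MiR-206-3p, the most abundant of the 3, had −0.54 (SE 0.205, unadjusted p = 0.0225, adjusted p = 0.437), which is under the 1.5-fold criterion. It was at 254 to 347 CPM in HIBI cerebellum and 360 to 546 CPM in sham cerebellum, with no overlap, and its exact permutation p was 0.0286, the smallest possible. The part of these in the members' values was not tested.

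**Figure D3:**
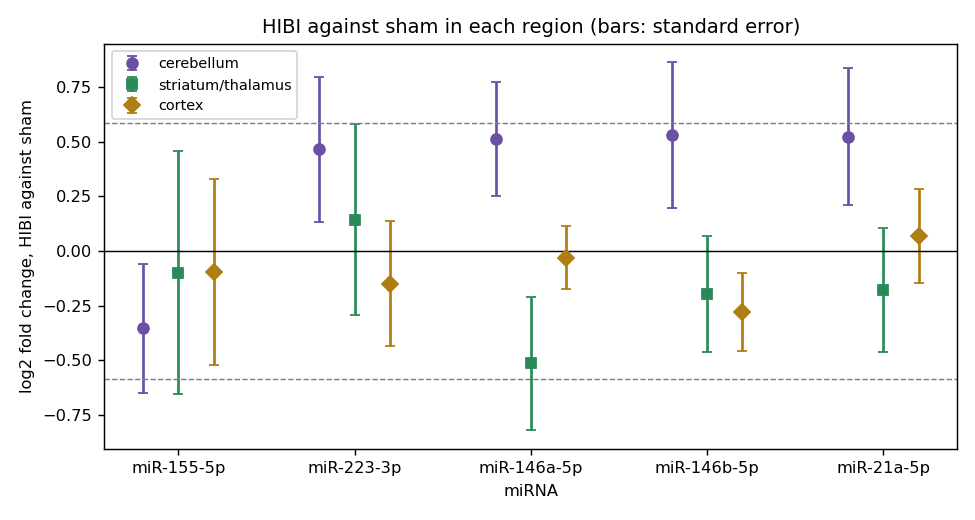
Log2 fold change of HIBI against sham (y axis) for 5 miRNAs (x axis) in the cerebellum (circles), striatum/thalamus (squares), and cortex (diamonds), with bars for the standard error and dashed lines at a fold change of 1.5 in either direction. Cerebellar values of miR-146a-5p, miR-146b-5p, miR-21a-5p, and miR-223-3p lie between 0.47 and 0.53, and all points lie inside the dashed lines.

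In the striatum/thalamus, values lay on both sides of 0. MiR-146a-5p was at 364, 384, 656, and 401 CPM in HIBI pups 1, 4, 5, and 7 and at 456, 652, 925, and 398 CPM in sham pups 2, 3, 6, and 8. HIBI pups 1, 4, and 7 were near the lowest sham pup, and HIBI pup 5 was close to sham pup 3. The log2 fold change was −0.51 (SE 0.306, adjusted p = 0.977), and without pup 5 it was −0.77 and met the criteria (unadjusted p = 0.0266, adjusted p = 0.391). Calls over all entries, 12 of 438 with all pups, also rose without pup 5, as counted below under processing. The values were −0.20 (SE 0.264) for miR-146b-5p, −0.18 (SE 0.282) for miR-21a-5p, −0.10 (SE 0.556) for miR-155-5p, and 0.14 (SE 0.438) for miR-223-3p.

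In the cortex, which lies in the territory of the closed artery, the differences were small. MiR-146a-5p differed by −0.03 (SE 0.143), with 561, 550, 728, and 616 CPM in HIBI pups and 715, 590, 613, and 579 CPM in sham pups. MiR-146b-5p differed by −0.28 (SE 0.179), miR-223-3p by −0.15 (SE 0.286), miR-155-5p by −0.10 (SE 0.425), and miR-21a-5p by 0.07 (SE 0.213), with adjusted p-values from 0.922 to 0.989. The medians over the 5 were −0.18 for striatum/thalamus and −0.10 for cortex, beside −0.03 and −0.02 over all entries tested. With each pup reduced to its mean over the 3 regions, the smallest exact permutation p among the 5 was 0.114, for miR-223-3p, whose HIBI mean was higher by 0.21 on the log2(CPM + 1) scale, and 1.6% of all entries had such a p under 0.05.

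The injury effect in the forebrain, the mean of cortex and striatum/thalamus, was set against that in the cerebellum, where the pups' hypoxia is not joined by the loss of carotid flow. Both miR-146 members were under an unadjusted 0.05 for that difference in edgeR's test, with −0.73 for miR-146a-5p (SE 0.318, adjusted p = 0.252) and −0.72 for miR-146b-5p (SE 0.345, adjusted p = 0.302). Neither passed adjustment, and 0 of the 437 entries did with edgeR and 0 with DESeq2, although 71 had an unadjusted p under 0.05 with edgeR. MiR-21a-5p and miR-223-3p had −0.52 (SE 0.362) and −0.39 (SE 0.446), and miR-155-5p had 0.33 (SE 0.541). With the GC trend removed and the pup as a replicate block, the miR-146 values were −0.43 (adjusted p = 0.219) and −0.38 (adjusted p = 0.387), and miR-21a-5p was at −0.07. MiR-486a-5p had 1.02 for the difference of injury effects (adjusted p = 0.190). The 2 erythrocyte miRNAs tested had a median of 0.36 without the GC correction, and neither was called. The other, miR-451a, lay the other way on the log2(CPM + 1) scale. Its HIBI minus sham values were −0.41 for striatum/thalamus and −0.33 for cortex, against −0.15 for cerebellum, with overlapping groups each time.

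The ratio of the miR-146 pair within a library does not depend on scaling. MiR-146b-5p had 0.194 to 0.287 counts for each count of miR-146a-5p in the 8 cerebellar libraries, 0.244 to 0.367 in the striatum/thalamus, and 0.280 to 0.428 in the cortex. The ratio was higher in the cortex than in the cerebellum in 8 of 8 pups, by 0.43 on the log2 scale (SD 0.276), and in the striatum/thalamus than in the cerebellum in 7 of 8 pups, by 0.34 (SD 0.306). The exact sign-flip tests gave p = 0.00781 and 0.0156, both 0.0469 when adjusted over the 6 ratio contrasts. Cortex and striatum/thalamus differed by 0.09 (SD 0.370, exact p = 0.547). How reads matching both sequences were assigned is not given in the sources used here.

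Between HIBI and sham the ratio differed by less than the test could call. In the striatum/thalamus it was 0.335, 0.356, 0.299, and 0.367 in HIBI pups 1, 4, 5, and 7 and 0.262, 0.268, 0.244, and 0.327 in sham pups 2, 3, 6, and 8. The exact permutation p was 0.0571, or 0.343 adjusted over 6 tests, and the groups overlapped only through HIBI pup 5 and the sham pup 8. In the cortex the geometric means were 0.300 in HIBI and 0.351 in sham (exact p = 0.143), and in the cerebellum 0.238 and 0.242 (exact p = 1.0). The ratio of miR-146b-5p to its other arm, miR-146b-3p, had exact p-values of 0.457 in cerebellum, 0.543 in striatum/thalamus, and 1.0 in cortex.

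**Figure D4:**
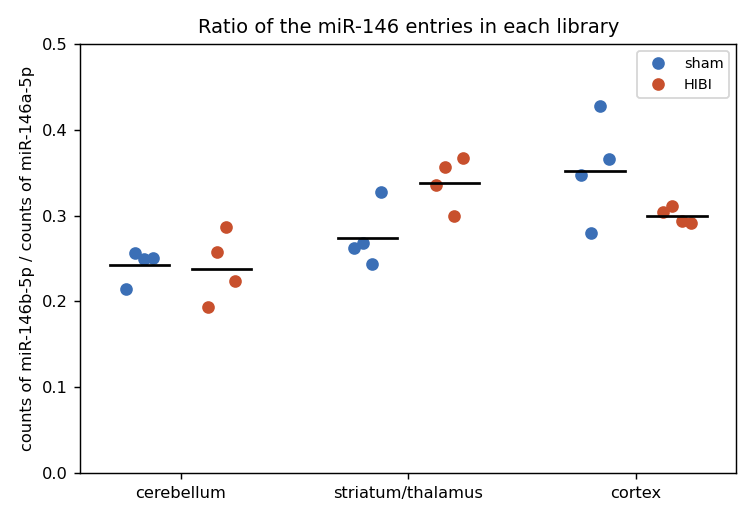
Counts of miR-146b-5p divided by counts of miR-146a-5p in each library (y axis, from 0), by region, blue for sham and orange for HIBI, with black bars for the geometric mean of 4 pups. Cerebellar ratios lie between 0.194 and 0.287 and cortical ratios between 0.280 and 0.428.

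Other blood-cell and inflammation-linked miRNAs gave a further reference. Of 9 such entries, 5 or 6 passed the minimum in each comparison, and 0 of those were called between HIBI and sham in any region. MiR-150-3p averaged under the minimum in the cortex and was not tested there. It was at 2.22, 4.43, 6.05, and 6.77 CPM in the cortex of HIBI pups 1, 4, 5, and 7, on 4 to 18 counts, and at 15.3, 17.9, 12.1, and 7.95 CPM in sham pups 2, 3, 6, and 8, on 19 to 56 counts. These groups did not overlap, which also held for 3.4% of the 412 cortical entries tested. The more abundant arm, miR-150-5p, lay the other way in the cortex. Its means were 673 CPM in sham and 813 CPM in HIBI, and its groups overlapped. Between regions, 2 of 6 tested were called higher in sham cortex than in sham cerebellum, beside 29.7% of all entries. In sham striatum/thalamus against sham cerebellum 4 of 6 were called higher, beside 31.6% of all entries, and none was lower in either contrast. Between sham cortex and sham striatum/thalamus 1 was higher and 1 lower, beside 16.9% and 16% of all entries. MiR-221-3p and miR-222-3p, a pair from 1 transcript that also acts in endothelium and neurons, were higher in the cortex than in the cerebellum by 2.88 and 2.97, opposite to miR-155-5p. MiR-150-5p and its other arm miR-150-3p were higher in the striatum/thalamus than in the cerebellum by 0.71 and 1.13 (adjusted p = 0.00156 and 0.0314). MiR-147-3p and miR-511-5p, the latter from a macrophage receptor gene, had 1 count each in the 24 libraries. The other arm, miR-511-3p, had 42 counts over 10 libraries, at most 12 in 1 of them, and was under the minimum. Its summed counts in HIBI and sham were 3 and 6 in the cerebellum, 10 and 0 in the striatum/thalamus, and 19 and 4 in the cortex. This difference was not tested.

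The likeness of the members was described by Pearson's r over 24 libraries from 8 pups, after the mean of each region and injury group was taken away. These libraries share pups, depth, and the GC trend above, and no test was made. The miR-146 pair had r = 0.90, and miR-21a-5p had 0.82 and 0.86 with miR-146a-5p and miR-146b-5p. MiR-155-5p and miR-223-3p had 0.77 with each other and 0.26 to 0.52 with the miR-146 pair and miR-21a-5p. Over all entries, the 3 most like miR-155-5p were miR-25-3p (0.86), miR-223-3p (0.77), and miR-199b-3p (0.73), and the 3 most like miR-223-3p were miR-155-5p (0.77), miR-25-3p (0.69), and miR-99a-5p (0.65). For miR-146a-5p they were miR-495-3p, miR-9-5p, and miR-384-5p, for miR-146b-5p miR-146a-5p, miR-376b-3p, and miR-384-5p, and for miR-21a-5p miR-9-5p, let-7f-5p, and miR-126a-3p, at 0.87 to 0.92. MiR-451a, the erythrocyte miRNA, had 0.78 with miR-146a-5p, 0.65 with miR-155-5p, 0.62 with both miR-146b-5p and miR-21a-5p, and 0.59 with miR-223-3p. In that order of members its places among the entries were 35, 10, 65, 67, and 11. The endothelial miR-126a-3p had 0.90 with miR-146a-5p, 0.54 with miR-155-5p, 0.84 with miR-146b-5p, 0.89 with miR-21a-5p, and 0.50 with miR-223-3p. Its places were 5, 43, 13, 3, and 36.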

How the data were processed

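Small RNA libraries of 200 ng RNA were sequenced from 24 samples. Reads were aligned by the authors to the mature miRNAs of the mouse with Bowtie2, and they deposited, per region, the counts of each of 1551 entries in each library, with no normalization. The miRBase release and the treatment of reads matching several entries are not given in the sources used here. The same tables hold the authors' edgeR comparison, deposited as log2 fold change, average log2 CPM, p-value, and FDR columns, which were not used. The 20 castor bean entries (0.000156% of counts) were left out.

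The software was DESeq2 1.42.0, edgeR 4.0.16, and limma 3.58.1 under R 4.3.3. Entries with an average above 10 CPM were fitted, and members below it were kept in the fit. HIBI was compared with sham by the quasi-likelihood test after TMM within each region. Contrasts of regions and of injury effects used all 24 libraries in 6 groups. Adjusted p-values are Benjamini-Hochberg over all entries tested. Exact tests were two-sided, on log2(CPM + 1) for levels and on the log2 ratio of counts for the ratios. Levels in CPM use TMM over 24 libraries. The 3 regions came from the same animal, so libraries are paired by pup. After group means were subtracted, the median correlation of libraries of 1 pup was 0.27 between cerebellum and cortex, 0.16 between cerebellum and striatum/thalamus, and 0.19 between striatum/thalamus and cortex (over 0.1 in 7, 5, and 5 of 8 pups, 435 entries). HIBI and sham pups share no number, so that comparison has no block. Nothing in the labels ties pups to litters.

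The GC correction removed a loess trend (span 0.75) from each library, using the 371 of 435 entries above 10 CPM with a RefSeq sequence. That correction and the sign-flip test were added once the data had been seen. The code was tested on simulated data. Members and marker lists were chosen with earlier results of these data known, and the named miRNAs are the members, those lists, and the 3 entries most like each member. Host genes are from GENCODE M21 on GRCm38.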

Additional observations from a re-analysis of the deposited data

Results flagged for a closer look

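Of 30 groups of 4 libraries tested for a value that stood apart from the rest, 2 were flagged by Dixon's criterion, about what chance gives at 1 in 20. MiR-146a-5p in the HIBI striatum/thalamus was at 656 CPM in pup 5, while the other HIBI pups were at 364 to 401 CPM, and without this library the difference from sham met the criteria as described above. MiR-223-3p in the HIBI cortex was at 21.7 CPM in pup 4, while the other HIBI pups were at 28.2 to 28.8 CPM.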

How the results depend on the processing

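The calls between HIBI and sham and between regions were recomputed under other scalings, filters, and tests, with the miR-146 pair summed, with the pup as a replicate block, with a GC correction, and without each pup. For single members, 340 of 363 values under other settings and 317 of 368 without 1 pup kept their direction and their side of the threshold. The members called in the cerebellum after HIBI were 1 with library size only (miR-146a-5p) and 1 with GC correction (miR-155-5p), against 0. Between sham cortex and sham cerebellum 1 was called with the pair summed and 1 in the HIBI pups, against 2, and between sham striatum/thalamus and sham cerebellum 4 with GC correction and replicate block, against 2. Without 1 pup, the members called ranged from 0 to 3 in the cerebellum, 0 to 1 in the striatum/thalamus, and 0 to 0 in the cortex after HIBI, from 1 to 2, 2 to 3, and 0 to 1 in the contrasts of sham cortex with cerebellum, striatum/thalamus with cerebellum, and cortex with striatum/thalamus, and from 0 to 0 for the difference of injury effects. The replicate block changed no other call of a member than that of miR-146b-5p between striatum/thalamus and cerebellum. Causes were not tested.

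Some directions turned, none of them of a called value. MiR-223-3p between sham cortex and sham cerebellum was 0.039 with DESeq2 size factors, 0.059 with library size only, 0.045 above 1 CPM, 0.15 with no filter, 0.038 with DESeq2, and 0.050 with GC correction and replicate block, against −0.0091. MiR-146a-5p after HIBI in the cortex was 0.011 with no filter and 0.050 with GC correction, and miR-155-5p after HIBI in the striatum/thalamus was 0.18 with GC correction. In the HIBI pups, miR-146a-5p was −0.093 for cortex and −0.54 for striatum/thalamus against cerebellum, and miR-146b-5p was −0.11 for the latter. MiR-146a-5p between cortex and striatum/thalamus was −0.0043 with library size only and −0.22 with GC correction and replicate block, and its mean over 8 pups between striatum/thalamus and cerebellum was −0.088.

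Without 1 pup, the log2 fold changes that changed sign ranged as follows. After HIBI in the striatum/thalamus, miR-155-5p ranged from −0.36 to 0.27, miR-146b-5p from −0.37 to 0.093, miR-21a-5p from −0.45 to 0.060, and miR-223-3p from −0.065 to 0.47. After HIBI in the cortex, miR-155-5p ranged from −0.33 to 0.16, miR-146a-5p from −0.11 to 0.064, miR-21a-5p from −0.065 to 0.21, and miR-223-3p from −0.26 to 0.13. Between sham cortex and sham cerebellum miR-223-3p ranged from −0.49 to 0.22, and between sham cortex and sham striatum/thalamus miR-155-5p from −0.76 to 0.023 and miR-146a-5p from −0.16 to 0.32. The difference of injury effects for miR-223-3p ranged from −0.65 to 0.048. The mean injury effect over the 3 regions ranged from −0.37 to 0.11 for miR-155-5p, −0.12 to 0.14 for miR-146a-5p, −0.11 to 0.18 for miR-146b-5p, and −0.064 to 0.29 for miR-21a-5p. The log2 ratio after HIBI ranged from −0.11 to 0.075 for miR-146b-5p over miR-146a-5p in the cerebellum and from −0.24 to 0.28 for miR-146b-5p over miR-146b-3p in the cortex.

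Over all entries, the calls after HIBI in the cerebellum numbered 34, and 52 with library size only, 61 above 1 CPM, 106 with no filter, 62, 18, 20, and 82 without pups 1, 2, 3, and 6, and 0 by adjusted p. In the striatum/thalamus they numbered 12, and 19, 54, 21, 38, 19, and 0 above 1 CPM, with no filter, with DESeq2, without pups 5 and 8, and by adjusted p. In the cortex they numbered 14, and 40, 86, and 1 above 1 CPM, with no filter, and by adjusted p. Calls between sham cortex and sham cerebellum numbered 256, and 157 in the HIBI pups, and between sham cortex and sham striatum/thalamus 144, and 89 and 78 without pups 2 and 8. With 4 pups a group and 16 to 146 counts of miR-223-3p in a library, small differences of the scarcer members could not be resolved, and the miR-142a members could not be compared.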

Other observations

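MiR-342, made from an intron of Evl and abundant in lymphocytes and microglia, differed between pups in the same way in all 3 regions. In the order cerebellum, striatum/thalamus, cortex, miR-342-5p was at 33.4, 101, and 62.6 CPM in HIBI pup 1, and at 26.8, 66.3, and 58.3 CPM in HIBI pup 7. In HIBI pups 4 and 5 it was at 0.458 to 6.59 CPM in the 3 regions. Among sham pups it was at 25.2, 93.6, and 36.7 CPM in pup 3 and 46.1, 101, and 75.5 CPM in pup 6, while pups 2 and 8 were at 1.48 to 6.75 CPM.

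MiR-342-3p, the other arm, was also higher in pups 1, 3, 6, and 7 than in pups 2, 4, 5, and 8 in each region, with smaller differences and another order within these pups. In the cerebellum it was at 3264 CPM in pup 1, 2880 in pup 3, 2760 in pup 6, and 3005 in pup 7, and at 1636 in pup 2, 1199 in pup 4, 969 in pup 5, and 1454 in pup 8. Between HIBI and sham neither arm was called in any region, with log2 fold changes of −0.28 to 0.06 for miR-342-5p (SE 0.909 to 1.24). These entries were singled out after their values were seen, and no test between the pups was made.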
